A study of Mus musculus with 8 samples.

Results

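The Wnt ligands, receptors and modulators are a set of 52 genes among the 21885 genes measured in MC903-treated mouse skin. They were chosen by name: every Wnt, Frizzled (Fzd), secreted Frizzled-related (Sfrp), Dickkopf (Dkk) and R-spondin (Rspo) gene in the expression table, plus Lrp5, Lrp6, Wif1, Frzb, Axin2, Lef1, Tcf7, Lgr5, Lgr6, Znrf3 and Rnf43. By role these were 19 ligands, 10 Frizzled receptors, 2 co-receptors, 4 R-spondins, 4 R-spondin receptors or ligases, 10 secreted inhibitors and 3 nuclear factors or target genes. RNA sequencing had been done on 4 libraries of skin given MC903 plus phytic acid (PA), called phytic acid skin here, and on 4 libraries of skin given MC903 alone. MC903, or calcipotriol, is a vitamin D analogue used to induce a dermatitis like atopic eczema in mice, and phytic acid is the phosphate-rich inositol compound of seeds; the series asks about its effect on the skin barrier. All 8 libraries had received MC903 and none was untreated skin. The labels name the tissue as skin and give no strain, sex, age, dose or body site. They do not say whether the 4 libraries of a group came from separate mice, so each p-value reflects library-to-library spread that may be technical.

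Wnt proteins are secreted, lipid-carrying signals that bind Frizzled receptors together with Lrp5 or Lrp6. Binding stops a destruction complex, built on axin, from breaking down beta-catenin, which then works with the nuclear factors Lef1 and Tcf7 to switch on target genes such as Axin2. R-spondins, through Lgr receptors, hold off the ligases Znrf3 and Rnf43 that remove Frizzleds from the cell surface, and in skin the pathway is known for hair follicle formation, the growth phase of hair and renewal of the epidermis.

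MC903 replicate 3 stood apart from the other 7 libraries in the genes of this pathway. It had the highest FPKM (sequenced fragments per unit of gene length and of library size, so that levels of different genes can be compared) of all 8 libraries for 23 of the 52 members. Among genes tested it was highest for 14 of 33 members (42.4%), against 1960 of 12165 genes in all (16.1%). It reached at least 2 times the median of the other MC903 libraries for 11 of 33 members (33.3%) and for 571 genes in all (4.69%). Markers of hair follicle epithelium summed to 4444 FPKM in this library, against 496 to 663 FPKM in the other MC903 libraries, and each of the 15 measured was highest there. The part of these markers in the results on the pathway was not tested. Results are therefore given with all 8 libraries and again without MC903 replicate 3.

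Library totals recovered from the deposited values were 38310033 to 42997270 reads in phytic acid skin and 31676938 to 37639480 reads in MC903 skin, so every phytic acid library was the deeper. Of the 52 members, 33 reached 1 FPKM in at least 4 libraries and were tested, and 58 to 7252 reads stood behind each value of those whose reads could be recovered. The keratinocyte keratins Krt5 and Krt14, which mark skin epithelium, were abundant in every library: Krt5 lay between 726 and 898 FPKM in phytic acid skin and between 709 and 972 FPKM in MC903 skin.

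With all 8 libraries, 10 of the 33 members tested differed between the groups at an adjusted p (limma, Benjamini-Hochberg over 12165 genes) under 0.05, which is 30.3% against 25.8% of all genes tested. In phytic acid skin 7 were higher (Wnt3, Wnt7b, Lgr6, Sfrp4, Sfrp5, Dkk2 and Axin2), a direction called for 14.2% of all genes. Of these, Sfrp4 entered the test through the phytic acid libraries alone, so its place in the counts says nothing further. The 3 that were lower were Wnt10a, Sfrp1 and Dkk3, a direction called for 11.6% of all genes. Of the members, 7 had groups that did not overlap (21.2%), against 27.3% of all genes. The median log2 fold change, phytic acid minus MC903 on log2(FPKM + 1), was 0.14 for the members tested and 0.05 for all genes tested. At an unadjusted p under 0.05 there were 15 members and 4673 genes. Values in brackets after a fold change or a left-out library are adjusted p-values from limma, preceded where given by the fold change and its SE. With no filter on low values Wnt3, Wnt7b, Sfrp5, Dkk2 and Axin2 lost their calls (0.0532 to 0.0796). Under median-of-ratios scaling 5 members were higher and 5 lower, and the share of higher calls among all genes called was 44.6%, against 54.9% as deposited. Quantile normalization gave 5 members higher and 6 lower, and over all genes 1652 higher and 1748 lower (48.6% higher). With no filter on low values 5 of 50 members were called, against 16.5% of all genes. The count also moved with single libraries: 5 without phytic acid replicate 1, 6 without phytic acid replicate 4, 5 without MC903 replicate 1, 6 without MC903 replicate 2 and 4 without MC903 replicate 4. Over all 12165 genes, 3134 were called with all libraries, and 2299, 2403, 2013, 2305 and 2159 in those fits, in the same order. In each of those fits a smaller share of members than of all genes was called. Without phytic acid replicate 2 or 3, 8 members were called in each fit, against 2530 and 2755 genes, and there the share of members was the larger.

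Without MC903 replicate 3 the count was 17 of 33 (51.5%), with 14 higher and 3 lower, against 32.7% of all genes called, 19.9% higher and 12.8% lower. That library was left out after members were seen to be high in it, which favours higher calls for those members. The gap between 51.5% and 32.7% is therefore no result about the members. For the same reason, fold changes and adjusted p-values from that fit, given below for single members, are no added support for higher levels in phytic acid skin. Of the 10 members called with all libraries 9 were called again, Sfrp5 was lost (adjusted p = 0.0598, limma), and 8 were added, each of them higher in phytic acid skin: Fzd2, Fzd3, Fzd7, Lgr5, Rnf43, Rspo1, Wnt9a and Wnt11. The median log2 fold change became 0.31 for the members and 0.08 for all genes tested.

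**Figure D1:**
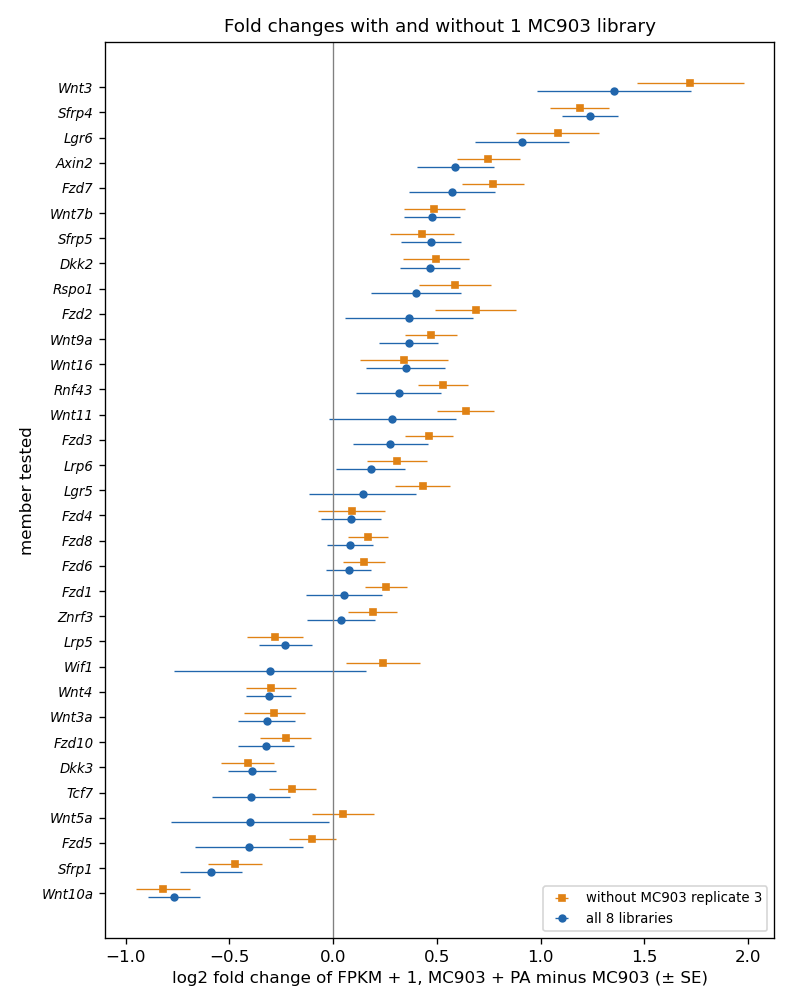
Log2 fold change of FPKM + 1, phytic acid skin minus MC903 skin, for the 33 members tested, with bars of 1 SE; squares leave out MC903 replicate 3 and circles use all 8 libraries. On this scale Wnt3 has the largest rise and Wnt10a the largest fall in both fits, though with a pseudocount of 0.1 in place of 1 the rise of Sfrp4 (2.12) was above that of Wnt3 (1.78), and Wif1 and Wnt5a lie on opposite sides of 0 in the 2 fits.

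To show what lies at the start sites of 3 members called higher with all libraries and of Fzd7, called higher when MC903 replicate 3 was left out, the promoter windows of Wnt3, Lgr6, Axin2 and Fzd7 are printed from RefSeq (build GRCm38.p6), each 300 bases from 250 before to 50 after the start, 5′ to 3′ on the gene's strand. Capitals mark matches to the motif bound by Tcf and Lef factors, searched on both strands in 4 forms: CTTTG followed by AA, AT, TA or TT. The windows lie at chr11:103773925-103774224 (plus strand) for Wnt3, chr1:135105227-135105526 (minus strand) for Lgr6, chr11:108920099-108920398 (plus strand) for Axin2 and chr1:59481897-59482196 (plus strand) for Fzd7.
Wnt3: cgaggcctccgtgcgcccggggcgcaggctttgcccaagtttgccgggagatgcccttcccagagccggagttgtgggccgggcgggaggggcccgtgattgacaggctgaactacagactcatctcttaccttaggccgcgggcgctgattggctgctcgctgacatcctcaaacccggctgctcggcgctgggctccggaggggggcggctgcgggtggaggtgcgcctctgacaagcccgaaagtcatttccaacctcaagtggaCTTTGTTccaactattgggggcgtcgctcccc
Lgr6: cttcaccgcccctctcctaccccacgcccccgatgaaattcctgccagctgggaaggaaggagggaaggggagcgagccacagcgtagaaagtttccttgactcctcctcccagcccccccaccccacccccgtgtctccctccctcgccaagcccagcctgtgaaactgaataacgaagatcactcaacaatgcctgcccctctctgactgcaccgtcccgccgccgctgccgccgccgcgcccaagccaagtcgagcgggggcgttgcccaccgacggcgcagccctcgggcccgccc
Axin2: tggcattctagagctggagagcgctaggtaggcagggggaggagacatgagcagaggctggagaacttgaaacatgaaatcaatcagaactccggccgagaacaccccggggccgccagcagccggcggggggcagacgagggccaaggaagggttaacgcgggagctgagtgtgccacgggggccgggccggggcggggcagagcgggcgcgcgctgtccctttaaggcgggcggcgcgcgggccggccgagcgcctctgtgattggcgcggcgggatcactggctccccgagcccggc
Fzd7: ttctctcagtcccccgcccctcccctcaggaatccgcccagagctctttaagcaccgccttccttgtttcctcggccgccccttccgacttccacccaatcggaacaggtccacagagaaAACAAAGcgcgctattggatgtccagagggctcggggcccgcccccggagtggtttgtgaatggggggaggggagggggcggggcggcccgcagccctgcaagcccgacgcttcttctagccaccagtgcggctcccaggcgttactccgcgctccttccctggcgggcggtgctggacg
Wnt3 has a match that begins at base 269 of its window and Fzd7 has a match at base 121, on the opposite strand, while the Lgr6 and Axin2 windows hold none of these letters. The windows counted were 42 for 34 of the members, of which 6 (14.3%) held a match. Over all genes 5544 of 32851 windows held one (16.9%). Windows were left out of the count for members, with Fzd8 and Wnt8a among those not counted, and the count over all genes was not limited in the same way. These shares come from unlike sets, so no comparison is drawn from them. Of the 10 members called, 5 had a window (Wnt3, Lgr6, Axin2, Dkk2 and Sfrp5), and that of Wnt3 was the only match among them.

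Among the 19 ligands, 9 were tested, of which 2 were higher in phytic acid skin, 1 was lower and 6 were not called. Beside these stand 14.2% of all genes called higher and 11.6% called lower. Wnt3, a ligand of the beta-catenin branch (chr11:103774150-103817957, plus strand, GRCm38), had 10.1, 5.42, 6.09 and 7.10 FPKM in phytic acid replicates 1 to 4, against 1.21, 2.61, 5.74 and 0.782 FPKM in MC903 replicates 1 to 4. All phytic acid libraries were above MC903 replicates 1, 2 and 4, and MC903 replicate 3 lay above the lowest phytic acid library. The log2 fold change was 1.35 ± 0.37 (SE, adjusted p = 0.0261, limma) and 1.72 ± 0.26 without MC903 replicate 3 (adjusted p = 0.00135). The call with all libraries was lost without phytic acid replicate 1 or 4 or MC903 replicate 1 or 4, with adjusted p from 0.0572 to 0.0743 (limma). Wnt7b, a ligand that hair follicle epithelium makes in mice (chr15:85535437-85582473, minus strand), had 4.82, 4.53, 4.003 and 4.53 FPKM in phytic acid replicates 1 to 4, against 2.78, 3.90, 3.02 and 2.19 FPKM in MC903 replicates 1 to 4. The groups did not overlap, although the lowest phytic acid library and MC903 replicate 2 were close. For Wnt7b the log2 fold change was 0.48 ± 0.13 (SE, adjusted p = 0.0280, limma), and the call was lost without phytic acid replicate 1, 2 or 4 or MC903 replicate 1 or 4 (adjusted p from 0.0610 to 0.0763) and under median-of-ratios and quantile scaling (0.0576 and 0.0647).

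Wnt10a, a ligand whose loss in people disturbs teeth, hair and the skin of palms and soles (chr1:74791516-74804179, plus strand), was the ligand lower in phytic acid skin. It had 3.58, 3.85, 2.86 and 4.47 FPKM in phytic acid replicates 1 to 4, against 7.89, 6.84, 6.07 and 6.99 FPKM in MC903 replicates 1 to 4. Every phytic acid library was below every MC903 library. For Wnt10a the log2 fold change was -0.77 ± 0.13 (SE, adjusted p = 0.00275, limma), and the call held when any 1 library was left out, with a highest adjusted p of 0.0118.

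Wnt4, known for its part in the development of the female reproductive tract and kidney, had the highest mean level of the ligands in both groups: 9.10 ± 1.37 FPKM in phytic acid skin and 11.5 ± 0.388 FPKM in MC903 skin (SD, n = 4 each). Its groups did not overlap, with all phytic acid libraries the lower, but it missed the threshold (adjusted p = 0.0597, limma) except without phytic acid replicate 2 (0.0342) and under median-of-ratios (0.0154) or quantile scaling (0.0282). Wnt9a averaged 1.69 ± 0.350 FPKM in phytic acid skin and 1.10 ± 0.335 FPKM in MC903 skin. Wnt11, which acts in cell movement and polarity, averaged 1.95 ± 0.165 FPKM in phytic acid skin and 1.70 ± 1.59 FPKM in MC903 skin. Both were called only in the fit without MC903 replicate 3 among those leaving out a library, a fit that favours higher calls. The log2 fold changes there were 0.47 ± 0.12 for Wnt9a (adjusted p = 0.0193, limma) and 0.64 ± 0.14 for Wnt11 (0.00808). Wnt3a averaged 0.936 ± 0.147 FPKM in phytic acid skin and 1.44 ± 0.394 FPKM in MC903 skin, and was called without MC903 replicate 1 (0.0406) and under quantile scaling (0.0229). Wnt16 averaged 1.73 ± 0.630 FPKM in phytic acid skin and 1.11 ± 0.308 FPKM in MC903 skin, and was called without phytic acid replicate 1 (0.0313).

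Wnt5a, the best known ligand of the branch that works without beta-catenin, measured 2.71, 1.46, 1.71 and 1.92 FPKM in phytic acid replicates 1 to 4, against 1.64, 1.80, 8.79 and 2.03 FPKM in MC903 replicates 1 to 4. Outside MC903 replicate 3 the groups overlapped. Its log2 fold change was -0.40 ± 0.38 (adjusted p = 0.472, limma) and 0.05 ± 0.15 without that library (0.824). Wnt10b, which in mice favours the growth phase of hair, was below the filter with 0.736, 0.476, 0.369 and 0.433 FPKM in phytic acid replicates 1 to 4, against 0.130, 0.220, 5.66 and 0.181 FPKM in MC903 replicates 1 to 4. Each phytic acid library was above MC903 replicates 1, 2 and 4 and far below MC903 replicate 3. The remaining ligands below the filter were low throughout: Wnt5b stayed at or under 2.14 FPKM and Wnt6 at or under 1.02 FPKM, both highest in MC903 replicate 3, Wnt2, Wnt2b, Wnt8a and Wnt9b stayed under 1 FPKM, and Wnt7a and Wnt8b under 0.1 FPKM. Wnt1 was listed at 0 in all 8 libraries.

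**Figure D2:**
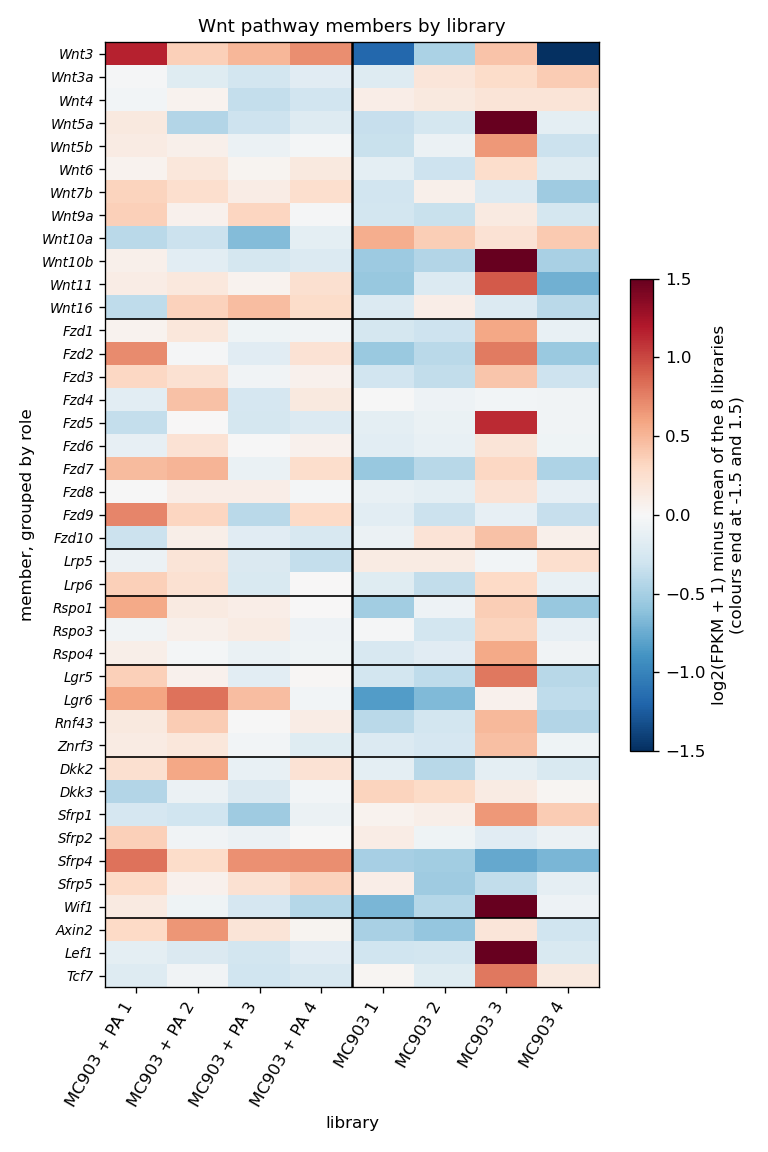
Heat map of log2(FPKM + 1) minus the mean of the 8 libraries, for members that reached 1 FPKM in at least 1 library (11 members did not), in rows grouped by role, with phytic acid libraries left of the line and MC903 libraries right of it. The column of MC903 replicate 3 is dark red for Wnt5a, Wnt10b, Wif1 and Lef1, where its 8.79, 5.66, 12.3 and 3.17 FPKM were the highest values of the 8 libraries.

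Frizzled receptors, which carry the Wnt-binding domain, were measured at a wide range of levels. None of the 9 tested was called by limma with all 8 libraries, against 25.8% of all genes tested. Among these 9, 2 had an unadjusted p under 0.05, against 4673 of all 12165 genes. By voom on the recovered reads 0 were called, against 2983 of 11657 genes. With 9 genes these counts cannot set the Frizzleds apart from all genes. Fzd6, known for ordering hair direction in mouse skin, was the most abundant at 22.3 ± 2.32 FPKM in phytic acid skin and 21.1 ± 2.49 FPKM in MC903 skin (SD, n = 4 each). Fzd7 averaged 16.6 ± 3.17 FPKM in phytic acid skin, where its mean was the next after Fzd6, and 11.03 ± 3.72 FPKM in MC903 skin, where Fzd1, Fzd10 and Fzd4 had higher means. Fzd1 averaged 15.0 ± 1.24 FPKM in phytic acid skin and 14.9 ± 5.11 FPKM in MC903 skin. Fzd6 was above both in each of the 8 libraries, while the order of Fzd7 and Fzd1 differed between libraries. Fzd4, which vessels of the eye need, averaged 12.3 ± 2.98 FPKM in phytic acid skin and 11.3 ± 0.291 FPKM in MC903 skin. Fzd10 averaged 10.4 ± 1.44 FPKM in phytic acid skin and 13.4 ± 2.25 FPKM in MC903 skin, with an adjusted p of 0.104 (limma) that was 0.0451 under median-of-ratios scaling. The other 4 tested, Fzd2, Fzd3, Fzd5 and Fzd8, had means of 1.03 to 4.26 FPKM.

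Fzd7 (chr1:59482424-59486955, plus strand) missed the threshold with all 8 libraries. It had 18.7, 19.2, 12.3 and 16.1 FPKM in phytic acid replicates 1 to 4, against 8.58, 9.68, 16.6 and 9.29 FPKM in MC903 replicates 1 to 4. MC903 replicate 3 lay within the phytic acid range and the other MC903 libraries below it. The log2 fold change was 0.57 ± 0.21 with all libraries (adjusted p = 0.0675, limma). It was 0.77 ± 0.15 without MC903 replicate 3 (0.00502), a library left out after members were seen to be high in it. That value is therefore no added support for a rise. Fzd7 also passed without phytic acid replicate 3 (0.0380). With the same limit, Fzd2 and Fzd3 were called without MC903 replicate 3, at log2 fold changes of 0.69 ± 0.19 (0.0254) and 0.46 ± 0.12 (0.0161). Fzd2 had 2.99 to 6.36 FPKM in phytic acid skin and 2.07 to 2.40 FPKM in MC903 replicates 1, 2 and 4, against 6.73 FPKM in MC903 replicate 3. Fzd5 lay between 1.80 and 2.60 FPKM in phytic acid skin and was at 2.22, 2.34, 6.75 and 2.45 FPKM in MC903 replicates 1 to 4. The fold changes of Fzd1, Fzd4, Fzd6 and Fzd8 were between 0.05 and 0.09 on the log2 scale with all libraries, not called, and each took the opposite sign under at least 1 other setting. Fzd9 stayed below the filter, at 0.284 to 1.81 FPKM in phytic acid skin and 0.338 to 0.556 FPKM in MC903 skin. The co-receptors Lrp5 and Lrp6, which Frizzleds need for the beta-catenin branch, were not called: Lrp5 averaged 7.08 ± 1.35 FPKM in phytic acid skin and 8.41 ± 0.768 FPKM in MC903 skin. Lrp6 averaged 10.8 ± 2.02 FPKM in phytic acid skin and 9.46 ± 2.12 FPKM in MC903 skin.

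R-spondins were low, and of their receptors Lgr6 was higher in phytic acid skin. Of the 4 R-spondins only Rspo1 was tested, with 3.12, 2.06, 1.97 and 1.78 FPKM in phytic acid replicates 1 to 4, against 0.945, 1.64, 2.58 and 0.869 FPKM in MC903 replicates 1 to 4. It was not called with all libraries, at a log2 fold change of 0.40 ± 0.22 (adjusted p = 0.205, limma). Without MC903 replicate 3, a fit that favours higher calls, it was called (0.59 ± 0.17, 0.0302). Rspo3 and Rspo4 were below the filter with at most 1.41 FPKM, and Rspo2 stayed at or under 0.374 FPKM, each highest in MC903 replicate 3.

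Lgr6, an R-spondin receptor that marks stem cells of the upper hair follicle in mice (chr1:134983301-135105276, minus strand), had 4.56, 5.48, 4.08 and 2.60 FPKM in phytic acid replicates 1 to 4, against 1.07, 1.34, 2.85 and 1.83 FPKM in MC903 replicates 1 to 4. The groups overlapped through phytic acid replicate 4 and MC903 replicate 3. Its log2 fold change was 0.91 ± 0.23 (SE, adjusted p = 0.0170, limma), which became 1.08 ± 0.20 without MC903 replicate 3 (0.00397), and the call was lost without MC903 replicate 1 (0.0508). Lgr5, the related receptor that marks stem cells lower in the follicle, had 1.81, 1.30, 0.974 and 1.22 FPKM in phytic acid replicates 1 to 4, against 0.809, 0.681, 2.80 and 0.646 FPKM in MC903 replicates 1 to 4. Every phytic acid library lay above MC903 replicates 1, 2 and 4 and below MC903 replicate 3. Its log2 fold change was 0.14 ± 0.26 with all libraries (0.717) and 0.43 ± 0.13 without MC903 replicate 3 (0.0360). Whether Lgr5 and Lgr6 responded differently was not tested. Of the ligases that remove Frizzleds, Rnf43 averaged 1.998 ± 0.352 FPKM in phytic acid skin and 1.49 ± 0.847 FPKM in MC903 skin and was called without MC903 replicate 3 (0.53 ± 0.12, 0.0101). Lgr5 and Rnf43 were both highest in that library, so leaving it out favours higher calls for them. Znrf3 averaged 2.85 ± 0.422 FPKM in phytic acid skin and 2.81 ± 0.921 FPKM in MC903 skin, and its log2 fold change of 0.04 (0.892) changed sign under median-of-ratios and quantile scaling.

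Secreted inhibitors moved in both directions: of 6 tested, 3 were higher in phytic acid skin, 2 were lower and 1 was not called. Of all genes tested, 14.2% were called higher and 11.6% lower. Sfrp4, which binds Wnts outside the cell and whose loss in people thins the bone cortex (chr13:19623104-19632994, plus strand), had 3.11, 1.84, 2.74 and 2.80 FPKM in phytic acid replicates 1 to 4, against 0.650, 0.627, 0.375 and 0.448 FPKM in MC903 replicates 1 to 4. Every phytic acid library was well above every MC903 library. Sfrp4 was the single member that passed the filter through the phytic acid libraries alone, so the value given is from the fit with no filter on low values: its log2 fold change was 1.24 with an adjusted p of 0.00208 (limma). Sfrp5 (chr19:42197971-42202252, minus strand) had 4.88, 3.98, 4.58 and 5.07 FPKM in phytic acid replicates 1 to 4, against 4.09, 2.28, 2.70 and 3.34 FPKM in MC903 replicates 1 to 4. The groups overlapped through phytic acid replicate 2 and MC903 replicate 1. The log2 fold change was 0.47 ± 0.14 (adjusted p = 0.0378, limma), and the call was lost without phytic acid replicate 1, 3 or 4 or MC903 replicate 2, 3 or 4 (0.0598 to 0.0928) and under median-of-ratios and quantile scaling (0.0586 and 0.0641).

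Sfrp1, the most abundant of the Sfrp genes (chr8:23411502-23449632, plus strand), went the opposite way from Sfrp4. It had 17.3, 16.7, 14.1 and 19.4 FPKM in phytic acid replicates 1 to 4, against 21.7, 22.2, 33.2 and 27.5 FPKM in MC903 replicates 1 to 4. The groups did not overlap, with MC903 replicate 3 the highest. In Sfrp1 the log2 fold change was -0.59 ± 0.15 (adjusted p = 0.0185, limma) and -0.47 ± 0.13 without MC903 replicate 3 (0.0223), and it lost its call without MC903 replicate 4 (0.0507). Wif1, which binds Wnts in the extracellular space, had 3.25, 2.68, 2.23 and 1.87 FPKM in phytic acid replicates 1 to 4, against 1.39, 1.88, 12.3 and 2.67 FPKM in MC903 replicates 1 to 4. Apart from MC903 replicate 3 the groups overlapped, and its log2 fold change was -0.30 ± 0.46 with all libraries (0.663) and 0.24 ± 0.18 without it (0.328). Sfrp2 was below the filter at 0.583 to 1.15 FPKM in phytic acid skin and 0.494 to 0.821 FPKM in MC903 skin, as was Frzb at 0.316 to 0.872 FPKM in phytic acid skin and 0.0386 to 0.550 FPKM in MC903 skin.

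Dickkopf genes split as well. Dkk2, which binds Lrp5 and Lrp6 (chr3:132085292-132180304, plus strand), had 8.64, 11.2, 6.54 and 8.50 FPKM in phytic acid replicates 1 to 4, against 6.36, 5.08, 6.36 and 5.98 FPKM in MC903 replicates 1 to 4. All phytic acid libraries were higher, but phytic acid replicate 3 was barely above MC903 replicate 1. The log2 fold change was 0.47 ± 0.14 (adjusted p = 0.0399, limma), and the call was lost without phytic acid replicate 1, 2 or 4 or MC903 replicate 1, 2 or 4 (0.0723 to 0.103) and under TPM scaling, which gives every library the same sum (0.0635). Dkk3, the divergent Dickkopf (chr7:112116017-112159057, minus strand), had 15.6, 20.2, 18.3 and 20.8 FPKM in phytic acid replicates 1 to 4, against 27.3, 26.5, 23.5 and 21.9 FPKM in MC903 replicates 1 to 4. All phytic acid libraries were lower, with phytic acid replicate 4 and MC903 replicate 4 near each other. The log2 fold change of Dkk3 was -0.39 ± 0.11 (adjusted p = 0.0338, limma), lost without phytic acid replicate 1 or 3 or MC903 replicate 1 or 2 (0.0670 to 0.101). Dkk1 was detected in MC903 replicate 3 alone, at 0.0438 FPKM from 4 reads, and Dkk4 was listed at 0 in all 8 libraries.

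**Figure D3:**
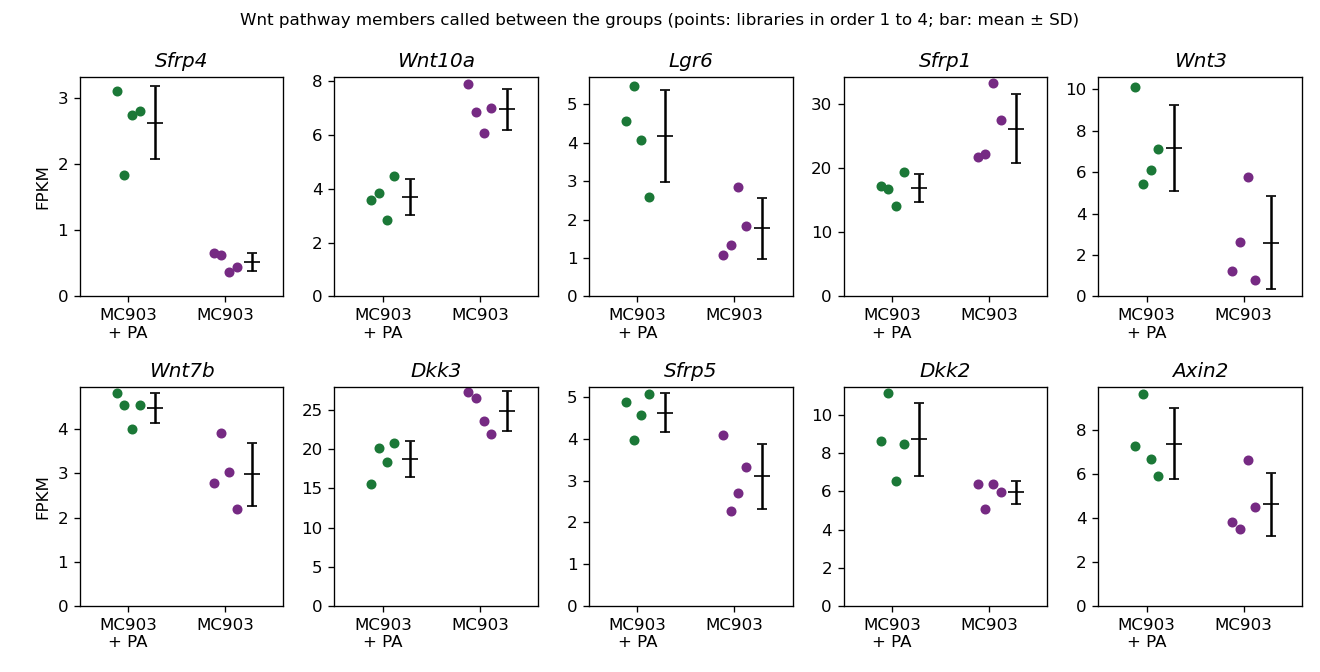
FPKM of the 10 members called with all 8 libraries, ordered by adjusted p, with 1 point per library (replicates 1 to 4 from left to right) and the mean ± SD of each group, phytic acid skin on the left and MC903 skin on the right of each panel. The groups are fully separated for Sfrp4, Wnt10a, Sfrp1, Wnt7b, Dkk3 and Dkk2, and overlap for Lgr6, Wnt3, Sfrp5 and Axin2.

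Axin2, the scaffold of the destruction complex that the pathway itself switches on and that is widely read as its output (chr11:108920349-108950783, plus strand), had 7.26, 9.62, 6.68 and 5.91 FPKM in phytic acid replicates 1 to 4, against 3.81, 3.502, 6.64 and 4.48 FPKM in MC903 replicates 1 to 4. The phytic acid libraries were all above MC903 replicates 1, 2 and 4, and MC903 replicate 3 lay between phytic acid replicates 3 and 4. The log2 fold change was 0.59 ± 0.19 (SE, adjusted p = 0.0442, limma) and 0.75 ± 0.15 without MC903 replicate 3 (0.00642). With all libraries the call was close to the threshold: it was lost without phytic acid replicate 1, 2 or 3 or MC903 replicate 1, 2 or 4 (0.0625 to 0.117) and under TPM scaling (0.0633). Tcf7, a nuclear partner of beta-catenin that T cells also use, had 3.40, 3.86, 3.10 and 3.27 FPKM in phytic acid replicates 1 to 4, against 4.16, 3.45, 7.74 and 4.56 FPKM in MC903 replicates 1 to 4. MC903 replicates 1, 3 and 4 were above all phytic acid libraries, yet the log2 fold change of -0.39 ± 0.19 was not called (0.154; quantile scaling 0.0463). Lef1, the partner of beta-catenin in hair shaft precursors, was below the filter, with 0.226, 0.166, 0.122 and 0.204 FPKM in phytic acid replicates 1 to 4, against 0.101, 0.124, 3.17 and 0.158 FPKM in MC903 replicates 1 to 4. Its level in MC903 replicate 3 was 25.5 times the median of the other MC903 libraries, and for Wnt10b that ratio was 31.3.

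**Figure D4:**
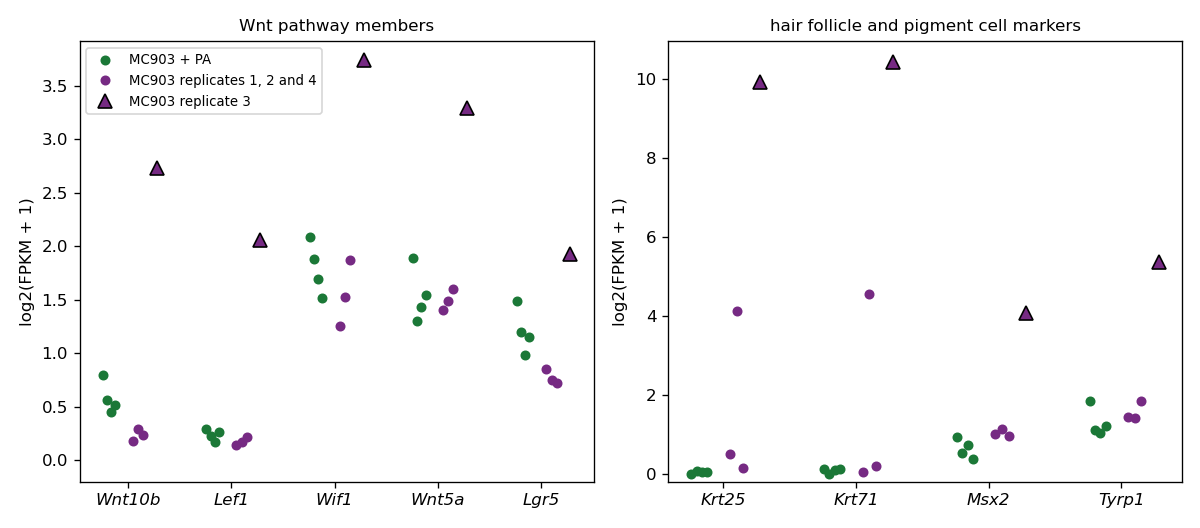
Log2(FPKM + 1) of 5 members (left) and of hair follicle and pigment cell markers (right) in the 4 phytic acid libraries, MC903 replicates 1, 2 and 4, and MC903 replicate 3 (triangle). The triangle is the highest point for each gene shown, at 5.66 FPKM for Wnt10b, 3.17 FPKM for Lef1, 959 FPKM for Krt25 and 1373 FPKM for Krt71.

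Other genes of the pathway were counted in 6 lists holding 71 genes, of which 58 were tested, with 8 called higher and 4 lower in phytic acid skin. These 12 are 20.7% of the genes tested in the lists, against 25.8% of all genes. The count of each list stands beside 14.2% of all genes called higher and 11.6% called lower. Without MC903 replicate 3 the counts were 15 higher and 4 lower, 19 in all (32.8%, against 32.7% of all genes), so the lists as a whole were called about as often as all genes or less. The count was 7 without phytic acid replicate 1 or MC903 replicate 2 or 4, where 2299, 2305 and 2159 genes in all were called. It was 6 without phytic acid replicate 2 or 4, where 2530 and 2403 genes in all were called. With all libraries 3134 genes in all were called, so the count over all genes fell in these fits too. Among 5 genes for Wnt release and surface carriage, 3 glypicans, heparan sulfate proteins of the cell surface that can bind Wnts, were higher. Gpc3 averaged 17.3 ± 1.90 FPKM in phytic acid skin and 9.40 ± 4.50 FPKM in MC903 skin, a log2 fold change of 0.90 ± 0.24 (adjusted p = 0.0221, limma). Gpc6 averaged 1.26 ± 0.225 FPKM in phytic acid skin and 0.694 ± 0.0979 FPKM in MC903 skin (0.41 ± 0.11, 0.0221). It passed the filter through the phytic acid libraries alone, and its adjusted p with no filter was 0.0189 (limma). Gpc4 averaged 17.6 ± 1.18 FPKM in phytic acid skin and 12.1 ± 3.58 FPKM in MC903 skin (0.54 ± 0.16, 0.0366). Each lost its call without at least 3 of the libraries left out in turn: Gpc3 without phytic acid replicate 1 or 4 or MC903 replicate 1, 2 or 4 (0.0548 to 0.0646), Gpc6 without phytic acid replicate 2 or 4 or MC903 replicate 2 (0.0552 to 0.0645) and also under quantile normalization (0.0725), and Gpc4 without any library other than MC903 replicate 3 (0.0612 to 0.103). The acyltransferase Porcn and the carrier Wls, which Wnt secretion needs, were not called.

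Of 15 genes tested for beta-catenin, its destruction complex and dishevelled, 14 were not called, among them Ctnnb1 itself at 60.6 ± 4.53 FPKM in phytic acid skin and 66.4 ± 17.6 FPKM in MC903 skin. Csnk1a1, the kinase that primes beta-catenin for breakdown, was lower at 61.9 ± 0.644 FPKM in phytic acid skin and 93.5 ± 3.88 FPKM in MC903 skin, a log2 fold change of -0.59 ± 0.08 (adjusted p = 0.00129, limma). Its groups did not overlap and its call held when any 1 library was left out. Among 13 other nuclear factors tested, Tle4, a corepressor that binds Tcf and Lef factors, was lower at 6.85 ± 0.574 FPKM in phytic acid skin and 13.4 ± 2.65 FPKM in MC903 skin (-0.85 ± 0.14, 0.00308), also without any 1 library. Ctnnbip1, which blocks beta-catenin from binding Tcf, was higher at 26.7 ± 6.13 FPKM in phytic acid skin and 16.02 ± 5.50 FPKM in MC903 skin (0.73 ± 0.24, 0.0491). That call was lost without phytic acid replicate 1, 2 or 3 or MC903 replicate 1 or 4 (0.0690 to 0.122) and under median-of-ratios scaling (0.0933).

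Among 6 further modulators tested, 2 were higher. Dkkl1, a Dickkopf-like secreted protein known from mouse testis, averaged 38.2 ± 7.05 FPKM in phytic acid skin and 11.1 ± 6.76 FPKM in MC903 skin, a log2 fold change of 1.87 ± 0.37 (adjusted p = 0.00667, limma) with groups that did not overlap and a call that held without any 1 library. Sostdc1, an antagonist of bone morphogenetic proteins and of Wnts, averaged 52.04 ± 9.57 FPKM in phytic acid skin and 28.6 ± 9.49 FPKM in MC903 skin (0.89 ± 0.25, 0.0290), and lost its call without phytic acid replicate 1, 2 or 4 or MC903 replicate 2 (0.0572 to 0.0737). The 6 target and feedback genes tested beside Axin2 went both ways, with 2 higher and 2 lower. Myc, a driver of cell growth, averaged 14.6 ± 2.03 FPKM in phytic acid skin and 28.5 ± 4.51 FPKM in MC903 skin (-0.91 ± 0.14, 0.00191). Ascl2, a stem cell factor of the mouse intestine, averaged 1.37 ± 0.262 FPKM in phytic acid skin and 0.638 ± 0.165 FPKM in MC903 skin (0.53 ± 0.12, 0.0131). Myc was called without any 1 library, while Ascl2 passed the filter through the phytic acid libraries alone and had an adjusted p of 0.0155 with no filter (limma). Tnfrsf19, a receptor found on the same stem cells, averaged 22.3 ± 3.21 FPKM in phytic acid skin and 11.3 ± 6.52 FPKM in MC903 skin (1.05 ± 0.29, 0.0276), a call lost without any library other than phytic acid replicate 3 and MC903 replicate 3 (0.0621 to 0.0785). The other lower gene, Ccnd1 (cyclin D1), named after its values were seen, averaged 4.19 ± 1.22 FPKM in phytic acid skin and 8.64 ± 3.49 FPKM in MC903 skin (-0.85 ± 0.25, 0.0356), lost without phytic acid replicate 2, 3 or 4 or MC903 replicate 4 (0.0683 to 0.0931). None of the 13 genes tested of the planar polarity and other beta-catenin-independent branches was called by limma with all libraries, and the smallest p-values belonged to Daam1, a formin that binds dishevelled (0.22 ± 0.10, 0.143), and to Intu, a planar polarity effector (0.12 ± 0.10, 0.413). At an unadjusted p under 0.05 there were 0 of these 13, and voom called 0 of the 11 it fitted. Of all 12165 genes, 25.8% were called by limma and 4673 had an unadjusted p under 0.05, and voom called 2983 of 11657.

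Markers of other cell types differed between the same groups. In whole skin fewer cells of a type and less RNA per cell cannot be told apart. Hair follicle epithelium markers were lower in phytic acid skin for 4 of 6 tested and higher for none with all libraries, and lower for 4 and higher for 2 (Lhx2 and Sox9) without MC903 replicate 3. They summed to 43.2 to 58.7 FPKM in phytic acid skin and 496 to 4444 FPKM in MC903 skin. In MC903 replicates 1, 2 and 4 most of the sum was Tchh, at 458, 539 and 437 FPKM, against 17.8 to 25.3 FPKM in phytic acid skin. The sum is therefore no measure of the list as a whole. Krt35 was at 0 in every phytic acid library, against 0, 0.807, 77.0 and 0.0223 FPKM in MC903 replicates 1 to 4, high in MC903 replicate 3 alone. Padi3, one of the 4 lower, passed the filter through the MC903 libraries alone. Melanocyte markers summed to 3.56 to 6.71 FPKM in phytic acid skin, to 4.09 to 5.56 FPKM in MC903 replicates 1, 2 and 4 and to 126 FPKM in MC903 replicate 3, and none of 3 tested was called by limma. Dermal papilla markers summed to 6.89 to 14.3 FPKM in phytic acid skin and 7.55 to 17.5 FPKM in MC903 skin, with 0 of 3 called. In the melanocyte and dermal papilla lists 0 markers had an unadjusted p under 0.05, against 4673 of all 12165 genes. Of these markers voom called 0, against 2983 of 11657 genes. Markers called higher in phytic acid skin were 9 of 10 for skeletal muscle, 5 of 8 for suprabasal keratinocytes, 5 of 8 for Schwann cells, 4 of 5 for T cells, 2 of 6 for adipocytes and 2 of 8 for fibroblasts, with none of these lists called lower. Beside these stand the 14.2% of all genes called higher and 11.6% called lower, and the fibroblast, endothelium and basal keratinocyte counts lie within 1 gene of those shares. Basal keratinocyte markers had 1 of 6 lower (Krt14, at 1161 to 1730 FPKM in phytic acid skin and 3061 to 6642 FPKM in MC903 skin), endothelium had 1 of 8 higher, and the sebaceous gland had 1 of 6 higher and 2 lower. Without MC903 replicate 3 the higher counts became 4 for adipocytes, 0 for endothelium and 2 for the sebaceous gland, basal keratinocytes had 2 lower, and the other lists kept their counts. The part of these cell types in the differences of the Wnt genes was not tested.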

How the data were processed

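RNA sequencing of 8 mouse skin libraries, 4 per group, was deposited by the authors as a table of FPKM values per gene. Tools listed in the submitters' processing notes are HISAT2, TopHat2, cutadapt and DESeq, with build mm10; their roles, versions, the annotation and the strand setting were not given in the sources used here. Values of overlapping, antisense and near-identical genes are therefore uncertain. Per the labels, total RNA went into mRNA libraries. Of 21959 rows, 51 without a name (0.016% to 0.0238% of a column's sum) were left out, and for 21 repeated names the row of highest mean was kept. Because FPKM is scaled to each library, large changes of a few abundant genes can move the values of all others.

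Values were tested as log2(FPKM + 1), which understates changes of low genes, with limma 3.58.1 in R 4.3.3 (lmFit, eBayes with trend, group as the factor, two-sided), for genes of at least 1 FPKM in at least 4 libraries. Benjamini-Hochberg adjustment covered all 12165 genes, and calls are at 0.05. Means and SDs are of FPKM. Fits that leave out a library kept the same genes. Multiplied by the exon length of GENCODE release M 21 (GRCm38), the deposited FPKM came within 0.05 of whole reads in all libraries for 17505 of 17976 genes (97.4%) and for 49 of the 52 members, which gave library totals. A limma voom fit on those reads called 10 members and 2983 of 11657 genes. Chi-square per gene between 2 replicates was 44.6 to 199, well over counting noise. The fit was tested on simulated data. Other settings were a pseudocount of 0.1, no filter, a mean of at least 2 FPKM, median-of-ratios, TPM and quantile scaling, eBayes without trend, a replicate block and each library left out. Every member called is named with its value in each library, and up to 3 called genes of smallest p per pathway list. Members, lists and settings were chosen with earlier results of these data known. Gene coordinates are from the same annotation and promoter windows from RefSeq, whose start sites can differ, and both count from 1. The Fzd7 window ends before the start of Fzd7 in the GENCODE annotation.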

Additional observations from a re-analysis of the deposited data

Results flagged for a closer look

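In 14 of the 108 sets of 4 libraries looked at (each member that reached 1 FPKM and each named pathway gene, in each group), a library lay far from the other 3 of its group. The limit used is passed by chance in about 1 in 20 independent sets of normal values. These sets are not independent, and Lef1 and Wnt10b entered through MC903 replicate 3 alone, so their number cannot be read against that rate. In all 14 it was MC903 replicate 3, and it was the high one. Lef1 stood at 3.17 FPKM there, Wnt10b at 5.66, Wnt5a at 8.79, Wif1 at 12.3, Lgr5 at 2.80, Rnf43 at 2.75 and Wnt9a at 1.596 FPKM. Among Frizzleds the values were 6.73 FPKM for Fzd2, 2.58 for Fzd3, 6.75 for Fzd5, 16.6 for Fzd7 and 1.41 for Fzd8. Of the pathway genes, Gpc4 stood at 17.4 FPKM and Intu at 1.18 FPKM. The median correlation of this library with the others of its group was 0.961, against 0.977 to 0.986 for the other MC903 libraries, and its hair follicle and melanocyte markers were the highest of the 8 libraries for 15 of 15 and 5 of 5 measured. The part of those markers in these values was not tested.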

How the results depend on the processing

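Leaving out each library in turn gave 4 to 17 members called (2 to 14 higher), 6 to 19 pathway list genes and 2013 to 3979 genes in all. Without a filter 5 members were called of 50 fitted (2 higher, 3 lower; 16.5% of all genes), a fit that tests 18483 genes. Lower members numbered 5 under median-of-ratios scaling and 6 under quantile normalization. Lower genes in all numbered 1828 and 1748 in those fits, against 1412 as deposited, so lower calls rose over the whole table. Signs turned only in genes not called: to -0.025 for Fzd1, -0.0044 for Fzd6 and -0.022 for Znrf3 under median-of-ratios scaling, and to -0.047 for Fzd8, -0.051 for Znrf3 and -0.014 for Intu under quantile normalization. With a library left out, log2 fold changes ran from -0.045 to 0.25 for Fzd1, -0.045 to 0.19 for Fzd4, -0.58 to 0.24 for Wif1, -0.58 to 0.048 for Wnt5a and -0.041 to 0.19 for Znrf3. The cause was not tested. A replicate block called 5 members (3 higher, 2 lower) and 2046 genes. Axin2, Dkk2 and Dkk3 were among the members that lost their calls there (adjusted p = 0.0986, 0.106 and 0.0941, limma). Deviations of same-numbered libraries from their group means had correlations of -0.283, -0.105, -0.286 and 0.225. Only replicate 4 of phytic acid skin correlated best with its own number. The labels state no pairing, and 4 such correlations cannot exclude it. Wnt10a kept its call in each setting tried.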
